A study of Rattus norvegicus with 6 samples.

Results

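Genes that fold, import, inspect and degrade proteins of the endoplasmic reticulum (ER) were followed in rat pituitary cultures given GnRH, the hypothalamic peptide that acts on the gonadotropes of the gland. The set was a list of 36 gene symbols sorted by role: chaperones and folding enzymes, the translocon, ER-associated degradation (ERAD), targets of the PERK-ATF4 branch of the stress response, and the stress sensors themselves. Of these, 35 had a probe set that the array annotation gave to that gene alone, out of 14217 genes and 31042 probe sets in all. Ern1, which encodes the sensor IRE1, had none and is not analysed here. Where a gene had several probe sets, which applied to 13 members, the one with the highest mean log2 value stood for it.

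The samples were whole-organ cultures of rat pituitary, 3 control cultures and 3 given GnRH at 10 nM, each measured on 1 array. The strain, sex and age of the animals, the length of the treatment and what the controls received in place of GnRH were not given in the sources used here. No label says that samples of a group came from separate animals, so the p-values cover only the scatter among these arrays. Among the controls this scatter includes a difference in sex-linked transcripts, described below, and so is not technical alone. Among the GnRH arrays it may be technical. A whole gland also holds cell types that GnRH does not act on, and in such bulk samples a change in the number of cells of a type cannot be told apart from a change in RNA per cell. The hormone transcripts that define the tissue were bright in every array, with log2 values of 14.09 to 14.25 for Gh1 and 13.83 to 14.21 for Prl.

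A hormone-secreting cell threads its products through the Sec61 channel into the ER, cuts off the signal peptide, adds glycans and disulfide bonds, and passes them to chaperones. Proteins that fail to fold are sent back to the cytosol by ERAD and degraded by the proteasome. When unfolded protein builds up, the sensors IRE1, ATF6 and PERK start the unfolded protein response. ATF6 and the IRE1 product XBP1 raise chaperone, translocon and ERAD genes, whereas PERK slows translation and raises ATF4 and its targets.

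Control 3 stood apart from the other controls, and the members shared in this. Its values had a Pearson correlation of 0.983 and 0.986 with controls 1 and 2 across probe sets, which are not independent, against 0.994 between those 2 controls and 0.988 to 0.991 between control 3 and the GnRH arrays. Controls 1 and 2 correlated with the GnRH arrays at 0.982 to 0.989, a range that overlaps that of control 3. Xist, the RNA that silences an X chromosome in female cells, measured 3.91 in control 1 and 3.66 in control 2 on the log2 scale, but 9.77 in control 3 and 9.16 to 9.73 with GnRH. The Y-linked gene Eif2s3y ran the opposite way, at 6.48 and 6.56 in controls 1 and 2, 2.76 in control 3 and 2.06 to 2.42 with GnRH. Low Xist with high Eif2s3y, the pattern of male tissue, was thus found in 2 of 3 controls and 0 of 3 GnRH arrays, so it goes in part with the group in every fit of all 6 arrays. The span from the 5th to the 95th percentile of log2 values was 4.98 and 5.04 in controls 1 and 2 and 5.17 to 5.27 in the other 4 arrays. With each member centred on its mean over the 6 arrays, the median member lay at -0.25 and -0.23 in controls 1 and 2, at 0.14 in control 3, and at 0.031, 0.18 and 0.082 in the 3 GnRH arrays. Results are therefore given with and without control 3. Without it, controls with low Xist are set against GnRH arrays with high Xist, and the 2 differences cannot be told apart.

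With all 6 arrays, 1 of the 35 members rose with GnRH and 0 fell, by limma with a Benjamini-Hochberg adjusted p under 0.05 over all probe sets. The gene that rose was Syvn1, the ubiquitin ligase at the core of ERAD. Over all probe sets 0.422% rose and 0.0419% fell, and over genes with 1 probe set each 0.556% rose and 0.0492% fell. At an unadjusted p under 0.05, 6 members lay higher and 0 lower. Of the 14217 genes, 1143 (8.04%) lay higher and 735 lower. The log2 difference, GnRH mean minus control mean, was above 0 in 27 of the 35 members and in 47.6% of all genes. Its median was 0.18 over the members and -0.0089 over all genes. All 3 GnRH arrays lay above all 3 controls in 3 members, Hyou1, Sec61a1 and Syvn1, against 8.65% of all genes. They lay below in 1, Chac1, against 8.62% of all genes.

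**Figure D1:**
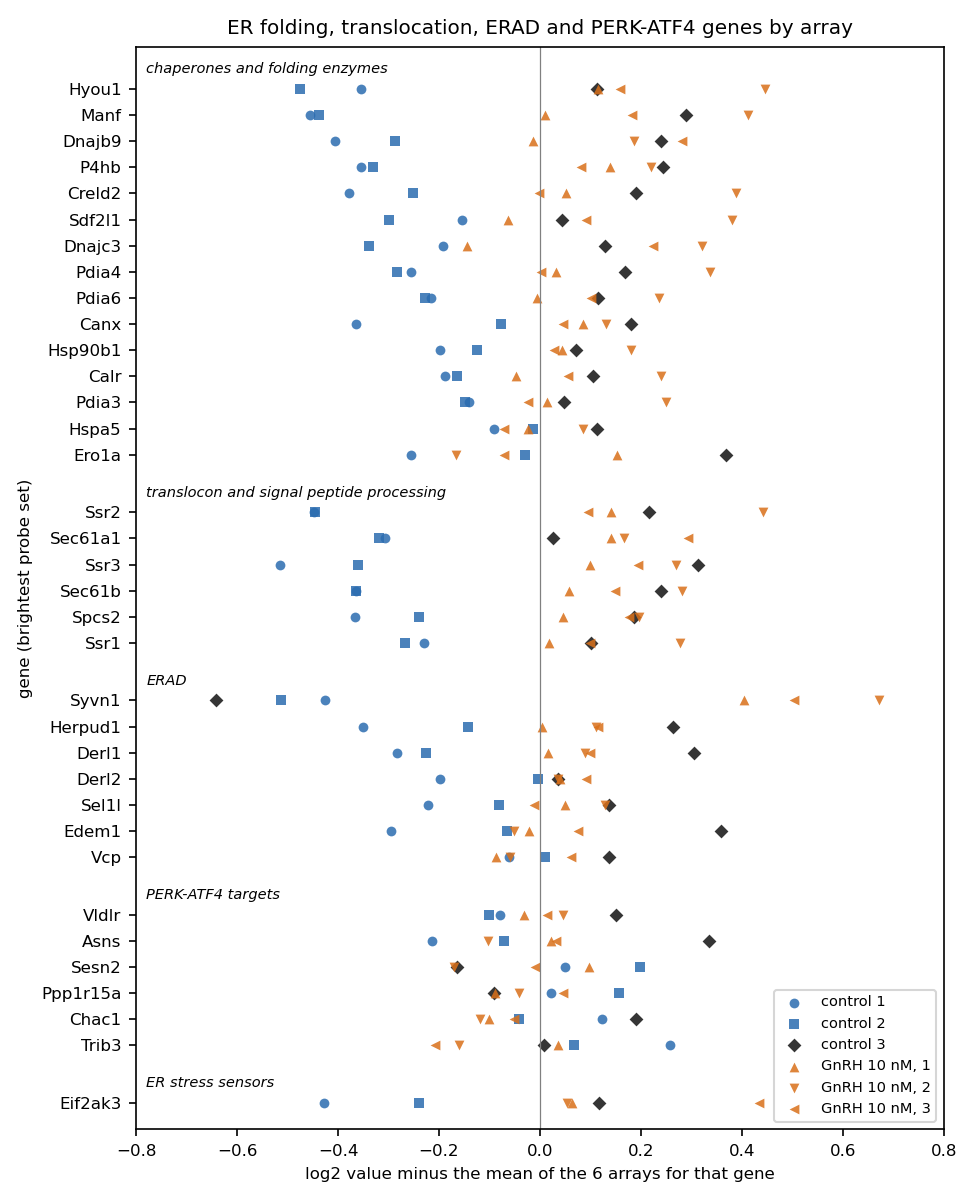
Log2 value of each of the 35 measured members in each array, minus the mean of the 6 arrays for that gene, grouped by role (horizontal axis, log2 units). Controls 1 and 2 (blue) lie to the left in nearly all chaperone and translocon genes. In most of these, control 3 (black) lies among the GnRH arrays (orange). Syvn1 is the gene in which all controls lie far below all GnRH arrays.

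Among the chaperones and folding enzymes, 0 of 15 passed the limma test with all arrays, with 1 at an unadjusted p under 0.05, and 13 of 15 log2 differences were above 0. Their median log2 difference was 0.25. Hyou1, the large Hsp70-type protein that recharges the chaperone BiP with ATP, was measured at log2 9.25, 9.13 and 9.720 in the control arrays, in order of their number, and at 9.722, 10.05 and 9.77 with GnRH. The highest control and the lowest GnRH array were thus almost level. The difference was 0.48 ± 0.15 (SE, 3 arrays a group; limma adjusted p = 0.247). A dimmer Hyou1 probe set gave 8.05, 7.87 and 8.10 against 8.37, 8.78 and 8.37. There the groups were clear of each other, with a difference of 0.50 ± 0.12 (limma adjusted p = 0.134).

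Manf, an ER-resident protein that is also secreted and protects cells under stress, had 9.41, 9.43 and 10.15 in the control arrays and 9.88, 10.28 and 10.05 with GnRH. Control 3 lay between the GnRH arrays, and the difference was 0.40 ± 0.19 (limma adjusted p = 0.419). Sdf2l1, a lumenal partner of ER J-domain proteins, had 8.06, 7.92 and 8.26 against 8.15, 8.60 and 8.31, with overlapping groups and a difference of 0.27 ± 0.13 (limma adjusted p = 0.430).

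In the other chaperones and folding enzymes the log2 differences ran from -0.056 to 0.30. Hspa5, which encodes BiP, the ER Hsp70 and the usual marker of the unfolded protein response, had 11.97, 12.05 and 12.18 in the control arrays and 12.04, 12.15 and 11.99 with GnRH. The groups overlapped fully, and the difference was -0.0056 with a 95% interval from -0.21 to 0.20. Hsp90b1, the ER Hsp90, had a log2 difference of 0.17, and the lectin chaperones Calr and Canx had 0.16 and 0.18. Dimmer Canx probe sets had 0.11 and 0.28. In the latter all GnRH arrays lay above all controls (limma unadjusted p = 0.0362, adjusted p = 0.373). Among the disulfide isomerases the log2 differences were 0.29 for P4hb, 0.16 for Pdia3, 0.25 for Pdia4 and 0.22 for Pdia6. Ero1a, the oxidase that recharges them, had -0.056. A dimmer probe set had -0.23 for Ero1a (limma adjusted p = 0.571) and -0.070 for Pdia3 (limma adjusted p = 0.803). The J-domain co-chaperones Dnajb9 and Dnajc3 had 0.30 and 0.27, and Creld2, a stress-inducible ER protein, had 0.29. The SEs over the group ran from 0.093 to 0.19 and the limma adjusted p-values from 0.247 to 0.987.

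Many chaperone genes are known to carry ER stress response elements, the DNA sites at which ATF6 and XBP1 act, so the promoters of the members were searched for them. The ERSE was taken as CCAAT, 9 bases of any kind and CCACG, and the ERSE-II as ATTGG, 1 base and CCACG, exact letters on both strands, from 250 bases before to 50 after each RefSeq start in GRCr8. Of the 35 members measured, 29 had a RefSeq promoter in the table used, and Pdia3, Pdia6, Ero1a, Manf, Sec61a1 and Derl1 did not. Of these 29 genes, 6 held an ERSE (20.7%), all of them chaperones or folding enzymes, against 0.0765% of 27457 genes. An ERSE-II stood in 2, Hyou1 and Herpud1, against 0.0619% of genes. The stretches below carry them, with the element in capitals on the strand of the gene, so that an element in reverse reads CGTGG first.
Hspa5, chr3:38452953-38453011, + strand: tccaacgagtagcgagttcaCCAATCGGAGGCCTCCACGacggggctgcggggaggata
Hsp90b1, chr7:23012327-23012489, - strand: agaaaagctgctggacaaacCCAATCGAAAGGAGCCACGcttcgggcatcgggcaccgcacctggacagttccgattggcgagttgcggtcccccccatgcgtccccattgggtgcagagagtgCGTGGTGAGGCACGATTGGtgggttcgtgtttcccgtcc
Dnajc3, chr15:102432514-102432572, + strand: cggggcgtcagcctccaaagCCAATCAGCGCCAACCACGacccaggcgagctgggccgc
Calr, chr19:40213117-40213173, + strand: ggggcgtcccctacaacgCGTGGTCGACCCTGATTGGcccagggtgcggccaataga
Canx, chr10:35158049-35158107, - strand: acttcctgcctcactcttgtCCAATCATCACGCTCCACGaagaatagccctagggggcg
Creld2, chr7:121789219-121789277, + strand: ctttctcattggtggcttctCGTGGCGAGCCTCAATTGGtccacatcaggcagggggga
Hyou1, chr8:53602674-53602824, + strand: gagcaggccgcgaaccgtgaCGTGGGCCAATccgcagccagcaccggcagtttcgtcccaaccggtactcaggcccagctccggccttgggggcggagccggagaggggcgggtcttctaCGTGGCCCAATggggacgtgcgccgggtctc
Herpud1, chr19:10614801-10614851, - strand: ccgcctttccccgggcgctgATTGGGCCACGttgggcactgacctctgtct
Hsp90b1 and Hyou1 each held 2 elements, and the element nearest to a start was that of Hspa5, from 43 to 25 bases before it. A UPRE core (TGACGTG) stood in 3 members, Hspa5, Hyou1 and Vcp (10.3%, against 2.02% of genes), and in Hyou1 it overlapped an ERSE-II. The core of the amino acid response element, at which ATF4 acts (TGATG, 1 base, AAT), was found in 0 of the 29 and in 1.14% of genes. Near matches were not searched, and a match describes these letters and not a site in use. As many chaperone genes were already known to carry these elements, their larger share among the members is not a finding of these data.

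Of the 8 members with an ERSE or ERSE-II, 0 passed the limma test with all arrays, with 1, Hyou1, at an unadjusted p under 0.05. Their log2 differences ran from -0.0056 for Hspa5 to 0.48 for Hyou1, with a median of 0.17. The 21 members with a promoter that held neither had a median of 0.25, from -0.22 for Trib3 to 1.05 for Syvn1. Control 3 lay above the mean of controls 1 and 2 in 8 of 8 with an element and in 17 of 21 without.

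Translocon genes had the largest median of the role groups with more than 1 measured gene, at 0.35, and 6 of 6 log2 differences were above 0. With all 6 arrays 0 of 6 passed the limma test, with 3 at an unadjusted p under 0.05. Sec61a1, which encodes the pore of the channel, had log2 values of 8.56, 8.55 and 8.89 in the control arrays and 9.01, 9.03 and 9.16 with GnRH. Every GnRH array lay above every control, and the difference was 0.40 ± 0.11 (SE; limma adjusted p = 0.181). A dimmer probe set of Sec61a1 gave 0.37 ± 0.089 (limma adjusted p = 0.122), while the dimmest gave -0.075.

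Ssr2, a subunit of the translocon-associated protein complex that assists some signal peptides, had 8.810, 8.812 and 9.47 in the control arrays and 9.40, 9.70 and 9.35 with GnRH. Controls 1 and 2 were level and control 3 lay among the GnRH arrays, so the difference was 0.45 ± 0.17 (limma adjusted p = 0.326). Ssr1, another subunit of that complex, had 8.66, 8.62 and 8.993 against 8.91, 9.17 and 8.991. Control 3 again lay among the GnRH arrays, and the difference was 0.26 ± 0.12 (limma adjusted p = 0.403). A dimmer Ssr1 probe set had 0.13 ± 0.17 (limma adjusted p = 0.788). Ssr3 had a log2 difference of 0.38 on its brightest probe set and 0.43 and 0.86 on the others. The last, from the dimmest, had an SE of 0.21 (limma unadjusted p = 0.00191, adjusted p = 0.131), with all GnRH arrays above all controls. Sec61b, the small tail-anchored subunit of the channel, had 0.33, and Spcs2, a subunit of signal peptidase, had 0.28.

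In the ERAD group, Syvn1 rose and the other 6 of 7 did not pass. Syvn1 had log2 values of 7.54, 7.46 and 7.33 in the control arrays and 8.38, 8.64 and 8.47 with GnRH. The gap between the highest control and the lowest GnRH array was wider than the spread within either group. The rise was 1.05 ± 0.10 (SE), or 2.08-fold, with a 95% interval from 0.83 to 1.28 on the log2 scale (limma adjusted p = 0.00586). Control 3 was the lowest of the controls here, by 0.17 below the mean of controls 1 and 2, whereas it was the highest control in 31 of the 35 members. Without control 3 the rise was 0.996 ± 0.10 (limma adjusted p = 0.000621). Syvn1 was measured by 1 probe set.

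The promoter of Syvn1, shown because it is the member that rose, held none of the 4 motifs in the window searched. Its 250 bases before the RefSeq start are these.
Syvn1, chr1:212768658-212768907, + strand: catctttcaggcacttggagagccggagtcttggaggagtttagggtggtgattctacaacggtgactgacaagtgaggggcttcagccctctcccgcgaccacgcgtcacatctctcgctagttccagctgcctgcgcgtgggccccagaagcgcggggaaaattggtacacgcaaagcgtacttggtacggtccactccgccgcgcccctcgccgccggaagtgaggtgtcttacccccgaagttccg

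For the other ERAD genes the log2 differences ran from -0.057 to 0.15. Sel1l, the adaptor that holds Syvn1 in its membrane complex, had a log2 difference of 0.11, with a 95% interval from -0.12 to 0.35. Derl2, a membrane protein of the retrotranslocation channel, had 6.76, 6.95 and 6.996 in the control arrays and 7.0, 6.996 and 7.05 with GnRH. Its GnRH arrays lay at the upper end of the controls, with a difference of 0.11 ± 0.092 (limma adjusted p = 0.659). Herpud1, a stress-inducible membrane protein that works with the Syvn1 complex, had 8.45, 8.65 and 9.06 against 8.80, 8.91 and 8.91. Here control 3 was above all GnRH arrays, and the difference was 0.15 ± 0.14 (limma adjusted p = 0.691). Derl1 had a log2 difference of 0.14, Edem1, which handles mannose-trimmed glycoproteins, 0.00096, and Vcp, the ATPase that pulls substrates from the membrane, -0.057. Dimmer Edem1 probe sets had 0.010 (limma adjusted p = 0.977) and 0.29 ± 0.15 (limma adjusted p = 0.464). The dimmer probe sets of Derl1 had 0.11 and 0.11, and that of Derl2 had 0.097.

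**Figure D2:**
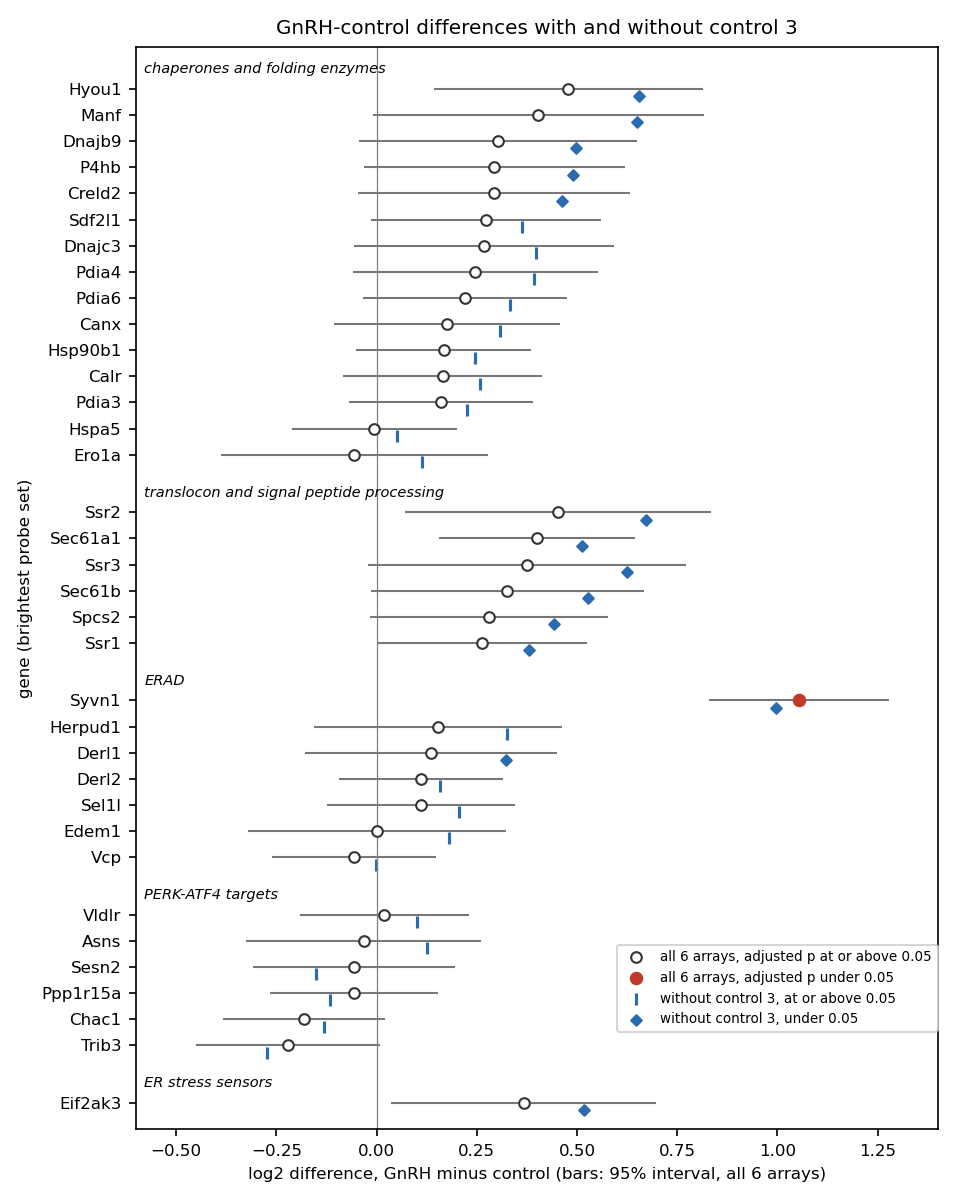
Log2 difference between GnRH and control arrays for each of the 35 members, with its 95% interval over all 6 arrays (circles and bars), and the difference without control 3 (blue). Syvn1 is the filled red point at 1.05, and the blue diamonds are the 14 members that passed the test without control 3.

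Targets of PERK and ATF4 had log2 differences from -0.22 to 0.019. Of 6 measured, 0 passed the limma test and 0 had an unadjusted p under 0.05, on the probe set that stood for each gene. The log2 difference was below 0 in 5, with a median of -0.056. Trib3, a pseudokinase that dampens ATF4 signalling, had 7.16, 6.97 and 6.91 in the control arrays and 6.94, 6.74 and 6.70 with GnRH. The groups overlapped by 1 array, and the difference was -0.22 ± 0.10 (SE; limma adjusted p = 0.422). Its other probe sets had -0.29 (limma unadjusted p = 0.00969, adjusted p = 0.248) and -0.12. In the former, which was dimmer, all GnRH arrays lay below all controls. Chac1, an enzyme that degrades glutathione, had 8.45, 8.28 and 8.51 against 8.22, 8.20 and 8.27. The GnRH arrays lay just below the lowest control, and the difference was -0.18 ± 0.091 (limma adjusted p = 0.460). Ppp1r15a, the phosphatase subunit that restarts translation, had 9.10, 9.23 and 8.98 against 8.99, 9.03 and 9.12, with mixed groups and a difference of -0.057 ± 0.094 (limma adjusted p = 0.842). Asns, the asparagine synthetase, had a log2 difference of -0.032, Sesn2, a stress-induced regulator of mTORC1, -0.056, and the lipoprotein receptor Vldlr 0.019. A dimmer Sesn2 probe set had -0.26 (limma unadjusted p = 0.0268, adjusted p = 0.336), again with all GnRH arrays below all controls. The other Vldlr probe sets ran from -0.093 to 0.19.

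Eif2ak3, which encodes PERK itself, was the measured stress sensor of the 2 on the list. It had 7.003, 7.19 and 7.55 in the control arrays and 7.494, 7.484 and 7.86 with GnRH. Control 3 lay above 2 of the GnRH arrays, and the difference was 0.37 ± 0.15 (SE; limma adjusted p = 0.358).

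**Figure D3:**
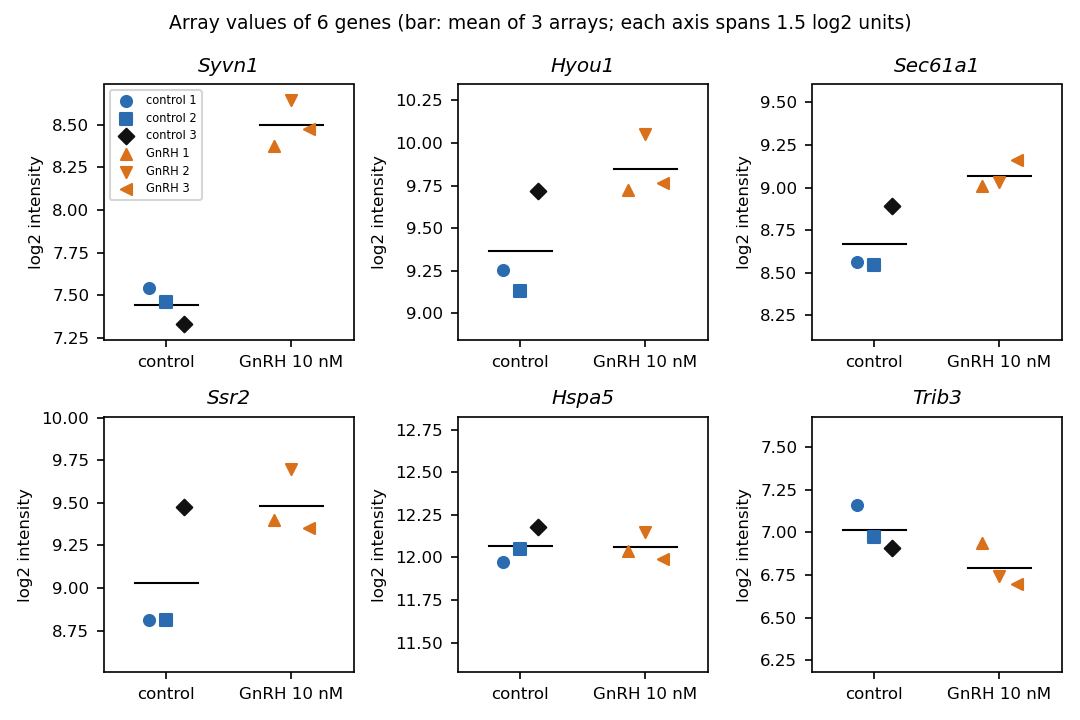
Log2 intensity in each array for Syvn1, Hyou1, Sec61a1, Ssr2, Hspa5 and Trib3, with a bar at the mean of the 3 arrays of a group and vertical axes of equal span. Syvn1 separates the groups whichever control is taken, whereas in Ssr2 control 3, at 9.47, lies among the GnRH arrays, and Hspa5 has the same mean in both groups to within 0.0056.

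Most members apart from Syvn1 and the PERK-ATF4 targets divided the arrays mainly into controls 1 and 2 against the rest. Control 3 lay above both other controls in 31 of 35 members, 15 of 15 chaperones and folding enzymes and 6 of 6 translocon genes among them, against 39.0% of all genes. In the PERK-ATF4 targets this held for 3 of 6. The median of control 3 minus the mean of controls 1 and 2 was 0.39 over the members, 0.55 over the translocon genes, -0.0018 over the PERK-ATF4 targets and -0.020 over all genes. All 3 GnRH arrays lay above controls 1 and 2 in 27 of 35 members, among them 1 of the 6 PERK-ATF4 targets, against 23.5% of all genes. Control 3 lay above all GnRH arrays in 13 of 35, against 30.7% of all genes, and in 5 of the 7 ERAD genes. Against control 3 alone, the GnRH mean had a median difference of -0.046 over the members and -0.0061 over all genes.

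Without control 3, 14 of 35 members passed the limma test, all higher with GnRH, against 6.25% of all genes higher and 2.20% lower. They were 5 chaperones and folding enzymes (Hyou1, Manf, P4hb, Dnajb9 and Creld2), all 6 translocon genes, Syvn1 and Derl1 of ERAD, and Eif2ak3. Their log2 differences ran from 0.32 for Derl1 to 0.996 for Syvn1, with SEs from 0.085 to 0.12 and limma adjusted p-values from 0.000621 to 0.0452. The next largest after Syvn1 were Ssr2 (0.67), Hyou1 (0.65), Manf (0.65) and Ssr3 (0.63). Hspa5 (0.050) and the 6 PERK-ATF4 targets did not pass there either. The count was 1 without each of the other 5 arrays in turn, and Syvn1 passed in each of these fits. With 1 array left out, the median log2 difference ran from 0.15 without GnRH 2 to 0.36 without control 3 in the chaperones and folding enzymes. It ran from 0.22 without control 1 to 0.52 without control 3 in the translocon genes, and from 0.027 to 0.21 without the same arrays in the ERAD genes.

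**Figure D4:**
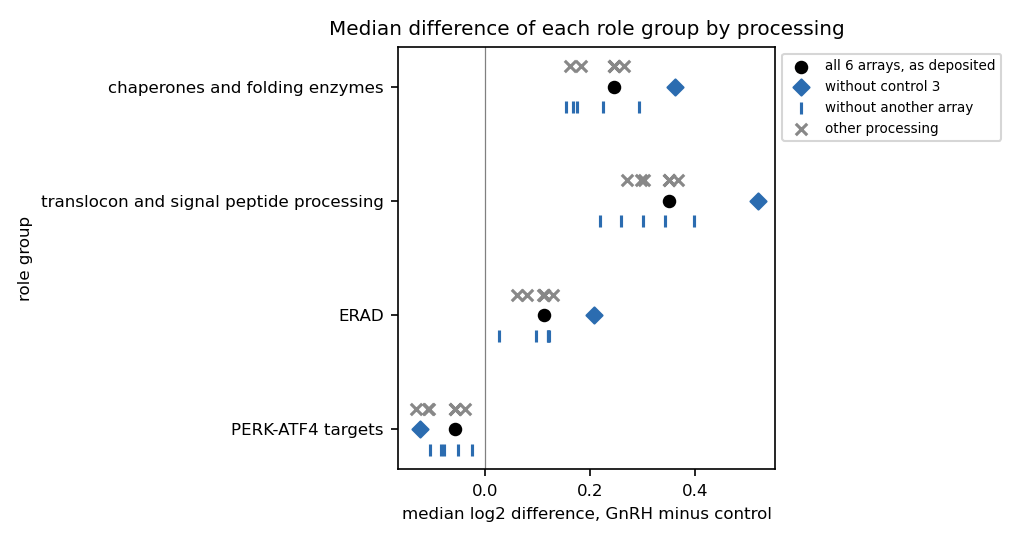
Median log2 difference of each role group with more than 1 measured gene, for all 6 arrays as deposited (black), with 1 array left out (blue) and with other processing (grey crosses). The translocon median is 0.35, with 0.22 without control 1 and 0.52 without control 3, while the PERK-ATF4 median lies below 0 in every fit drawn.

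Markers of other cell types were set beside these values. Of the marker lists, the lactotrope list, with both of its 2 genes measured, had a summed level (log2 of the summed intensities) of 13.85 to 14.17 in the control arrays and 14.18 to 14.24 with GnRH, and control 3 lay 0.29 above the mean of controls 1 and 2. The list of 5 gonadotrope genes, all measured, had 13.66 to 14.02 against 13.84 to 14.15, with control 3 higher by 0.32. Its members were not alike. Gnrhr, the GnRH receptor (1.12, limma adjusted p = 0.0215), and Nr5a1, a gonadotrope transcription factor (0.54, 0.0471), rose, as did Drd2, the dopamine receptor of the lactotrope list (0.56, 0.0399), and in each all GnRH arrays lay above all controls. Fshb, the FSH beta subunit, had a log2 difference of -0.30, and its control 3 value lay 0.84 below the mean of controls 1 and 2. Markers of plasma cells, another cell type rich in ER, had 7.28 to 7.37 against 7.23 to 7.36 over 2 measured genes of 3. The list of 4 posterior lobe and glial genes had 9.38 to 9.96 in the control arrays and 8.38 to 9.18 with GnRH, so that its summed groups did not overlap. Gfap had the largest log2 difference in it, at -1.97 (limma adjusted p = 0.0835), and 0 of the 4 passed the limma test. In Oxt and Nkx2-1 the groups overlapped. In several other lists control 3 lay below controls 1 and 2, with summed levels differing by -1.11 for red blood cells, -1.03 for thyrotropes, -0.52 for corticotropes and melanotropes, -0.42 for fibroblasts and pericytes and -0.33 for folliculostellate and stem-like cells. A summed level mostly follows the brightest gene of its list. Control 3 differed by -1.09 in Tshb but 0.12 in Dio2, the thyrotrope genes, and by 0.30 in Prl but -0.036 in Drd2. The corticotrope and melanotrope level was also lower with GnRH, by a difference of -0.52, and the thyrotrope level by -0.45, both with overlapping groups. That difference was -0.12 for red blood cells, -0.094 for fibroblasts and pericytes and 0.0054 for folliculostellate and stem-like cells. For somatotropes, endothelium and macrophages and leukocytes control 3 differed by -0.041, 0.10 and 0.17. The arrays carry no detection calls, so no marker could be called absent, and the part of these cell types in the results was not tested.

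Other genes of the same pathways, taken from a list of 140 of which 133 were measured, were fitted in the same way. With all arrays 2 rose, 0 fell and 131 did not pass, against 0.556% of all genes higher and 0.0492% lower. The median log2 difference was 0.18 over 38 further chaperones and folding enzymes and 0.18 over 34 translocation and N-glycosylation genes. It was 0.16 over 29 ERAD genes and -0.037 over 32 ATF4-responsive genes, against -0.0089 over all genes. Mogs, the glucosidase that trims the first glucose from N-glycans, had 6.86, 7.094 and 7.091 in the control arrays and 7.79, 8.11 and 8.01 with GnRH. It rose by 0.95 ± 0.11 (SE; limma adjusted p = 0.00807), and like Syvn1 it kept all controls well below all GnRH arrays. Herpud2, a relative of Herpud1, had 6.27, 6.57 and 6.33 against 7.07, 7.28 and 7.08 and rose by 0.75 ± 0.11 (limma adjusted p = 0.0180).

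Among the other translocation genes the smallest p-value was that of Ddost, a subunit of the oligosaccharyltransferase, at 0.46 ± 0.15 (limma adjusted p = 0.253). Among the ATF4-responsive genes it was that of Psat1, an enzyme of serine synthesis, at -0.42 ± 0.11 (limma adjusted p = 0.141). Without GnRH 2 Mogs (limma adjusted p = 0.0545) and Herpud2 (0.106) lost their calls, at log2 differences of 0.88 and 0.68. Herpud2 also lost its call without control 1 (0.0679), GnRH 1 (0.0588) or GnRH 3 (0.0545), at differences of 0.69, 0.79 and 0.79. Without control 3, 40 of the 133 passed, 39 higher and 1 lower, against 6.25% of all genes higher and 2.20% lower. The 39 were 10 chaperones and folding enzymes, 16 translocation and N-glycosylation genes, 8 ERAD genes and 5 ATF4-responsive genes.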

How the data were processed

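Transcript levels were measured on 6 arrays of 1 colour, 1 for each sample, from biotin-labelled cRNA of rat pituitary organ culture. The deposited values are intensities on a linear scale, which had been through RMA, per the submitters' processing notes. What software ran it was not given in the sources used here. The deposited arrays did not share 1 distribution. Their spans from the 5th to the 95th percentile were 4.98 and 5.04 in controls 1 and 2 and 5.17 to 5.27 in the others, on the log2 scale. Quantile normalization lowered the median log2 difference of the members from 0.18 to 0.11. The table had 31042 probe sets, 0 missing values and no detection calls, and medians of 64.5 to 67.0. No value is a count, and the number of arrays limits the precision.

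Samples were grouped by title. Values were turned into log2 with no pseudocount and fitted in R 4.3.3 using limma 3.58.1 (eBayes on lmFit, 2-sided, no covariate, no filter), with Benjamini-Hochberg over all probe sets and a threshold of 0.05. The fit was tested on simulated data. Probe sets with 1 symbol in the array annotation, 20826 in all, were named by their gene identifier in the GRCr8 table. Levels were not compared between genes.

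The members and lists were chosen with earlier results of these data known. Values in every array were given for members past the threshold and, in each role group, for the 3 members with the smallest p-values. Of the other pathway genes, those past the threshold were named, or else the 1 with the smallest p-value in a list. Other values by array, and the genes drawn, were chosen after the data were seen. Promoters came from RefSeq (GRCr8). Alternatives were other scalings, a filter on dim probe sets, an intensity trend, a replicate block, each array left out, averaging a gene's probe sets and a threshold of 0.10.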

Additional observations from a re-analysis of the deposited data

How the results depend on the processing

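The count of members past the threshold was 1 with all 6 arrays and 1 in each of the 8 alternatives that kept them. With 1 array left out it ran from 1 to 14, the latter without control 3. For the other pathway genes it was 2 with all arrays, 4 at a threshold of 0.10 (in limma's adjusted p) and 0 to 40 with 1 array left out. The 0 came without GnRH 2, where 11 genes had an unadjusted p under 0.05 by limma, and the 40 without control 3. The share of all genes was not counted at the threshold of 0.10 or without GnRH 2, so those counts cannot be set against it. The median log2 difference of the members ran from 0.11 with cyclic loess or quantile normalization to 0.32 without control 3, and stayed above 0. Syvn1 passed in 13 of 13 alternatives, at 0.98 to 1.11 (limma adjusted p from 0.000621 to 0.0361). Of the 12 other members named by rule, Hyou1, Manf, Sec61a1, Ssr1, Ssr2 and Eif2ak3 passed when control 3 was left out and in no other alternative, and the remaining 6 in none. With 1 array left out, Ppp1r15a ran from -0.12 without control 3 to 0.0070 without control 2 (limma adjusted p = 0.995 in the latter), and the cause was not tested.

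Sample titles in both groups carry the numbers 1 to 3. The deviations of same-numbered samples from their group means correlated at 0.16, -0.049 and 0.16, and GnRH 1 correlated best with control 2 (0.18), so the numbers were not taken to pair the samples. With the replicate number as a block, 1 member and 3 other pathway genes passed, and the share of all genes that rose was 0.865%.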
